A study of Mus musculus with 16 samples.

Results

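This account covers the transcripts of YFP+ projection neurons of the basolateral amygdala (BLApn) 4 hr after conditioned taste aversion (CTA) training, set against the same neurons after a taste control. The members are all table entries with a mean of at least 1 TPM (the length-corrected share of a library's transcripts) over the 8 BLA libraries, 14611 of 31469. The entries nearest the limit were *4931402G19Rik* inside it, with a mean of 1 TPM, and *Tsks* outside it, with 0.998 TPM. CTA mice had 30 min with 0.5% saccharin, after which 0.15 M lithium chloride was injected i.p. at 2% of body weight, and taste control mice drank the same saccharin and were injected with saline. All were male YFP-H mice (B6.Cg-Tg(Thy1-YFP)HJrs/J), in which the Thy1 promoter drives YFP, at postnatal day 60 to 80. There were 4 CTA and 4 taste control libraries from the BLA and as many from the gustatory cortex (GC), which enter here only where the regions are compared. YFP+ neurons were picked by hand from slices under fluorescence, so each library holds a small pool of cells. The labels give groups of 4 mice but do not tie a library to an animal, and p-values measure only the spread between these libraries. No library of mice given lithium chloride without saccharin was analysed here, so an effect of the agent and one of the learned association cannot be told apart.

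CTA is a form of learning in which an animal comes to avoid a taste that was followed by malaise. The basolateral amygdala holds mostly glutamatergic projection neurons, which carry taste and visceral signals to cortex, striatum and central amygdala. When such a neuron fires strongly, calcium and cyclic AMP signals phosphorylate CREB and serum response factor partners already bound at DNA. The rapid immediate early genes are then transcribed within minutes. Among their products are the transcription factors FOS and EGR1, and these act with others on delayed genes for synaptic and secreted proteins and on phosphatases and other regulators that limit the signal.

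*Fos* is a textbook case, and the sequence around its start is shown because a cyclic AMP response element there is among the best known of its kind. The window runs from 250 bases before to 50 bases after the start, at chr12:85473640-85473939 on the plus strand of GRCm38.p6 (RefSeq). Capitals mark TGACG, the core of the element, which was searched on both strands and found at 2 places, beginning at positions -129 and -66 relative to the start.
Fos: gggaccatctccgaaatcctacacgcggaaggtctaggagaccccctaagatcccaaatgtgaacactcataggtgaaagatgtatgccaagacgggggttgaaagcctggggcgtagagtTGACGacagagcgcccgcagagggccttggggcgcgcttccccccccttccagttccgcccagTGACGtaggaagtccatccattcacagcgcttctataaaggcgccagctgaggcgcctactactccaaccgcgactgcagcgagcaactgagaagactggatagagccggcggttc

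The full palindrome TGACGTCA holds the shorter TGACG, so that the matches to the shorter motif include those to the longer. TGACGTCA lay in such a window of 2.03% of 27025 genes in the RefSeq promoter table, and TGACG in 23%. Among the tested members of the 3 activity lists used below that have a window, TGACGTCA was found for 1 of 21 rapid immediate early genes, 4 of 23 feedback regulators and 3 of 16 delayed genes. The shorter TGACG was found for 15, 12 and 8 of these genes. The lists were put together from genes known to respond to activity, so these shares describe the lists and test nothing. The 8 windows with the full palindrome are shown as examples of the sequence, 16 bases on either side of it, with the palindrome in capitals.
Btg2: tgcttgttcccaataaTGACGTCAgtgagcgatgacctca
Dusp1: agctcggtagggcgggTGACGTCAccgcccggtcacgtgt
Errfi1: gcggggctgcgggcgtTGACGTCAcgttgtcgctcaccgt
Plk2: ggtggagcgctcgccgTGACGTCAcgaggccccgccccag
Rcan1: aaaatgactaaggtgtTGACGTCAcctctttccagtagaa
Pcsk1: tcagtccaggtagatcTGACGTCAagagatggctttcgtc
Scg2: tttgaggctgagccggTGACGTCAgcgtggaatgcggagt
Arl5b: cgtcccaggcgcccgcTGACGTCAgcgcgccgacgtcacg
The first of these, of *Btg2*, lies at chr1:134079298-134079337, and those of *Dusp1* and *Errfi1* at chr17:26508592-26508631 and chr4:150855003-150855042. The stretches of *Plk2* and *Rcan1* lie at chr13:110394966-110395005 and chr16:92400230-92400269. Those of the delayed genes *Pcsk1*, *Scg2* and *Arl5b* lie at chr13:75089763-75089802, chr1:79440071-79440110 and chr2:15055183-15055222. The strand of each is the gene's own, minus for *Btg2*, *Dusp1*, *Rcan1* and *Scg2* and plus for the others. *Btg2* is the rapid gene among them, and *Dusp1*, *Errfi1*, *Plk2* and *Rcan1* are feedback regulators. Differences on the log2 scale for these 8 genes lay between -0.24 (*Dusp1*) and 0.41 (*Scg2*), with 5 higher and 3 lower after CTA. Their standard errors ran from 0.19 (*Plk2*) to 0.77 (*Btg2*), so whether the genes share a direction cannot be told. A match is a run of letters and not a shown binding site.

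All levels below are in TPM, and libraries are given in the order 1 to 4. Differences are CTA minus taste control on log2(TPM + 1), a scale that understates changes of low genes, from a limma fit over all 14611 genes. At a Benjamini-Hochberg adjusted p under 0.05 limma called 0 genes (0% of those tested), and the smallest adjusted p was 0.999, so nothing below is called as changed and genes are said only to lie higher or lower. At an unadjusted p under 0.05 there were 568 genes (3.89%), 276 higher (1.89%) and 292 lower (2%) after CTA. The log2 fold-change was positive for 7618 genes (52.1%), with a median of 0.02. The groups did not overlap for 348 genes (2.38%), of which 191 (1.31%) had the CTA values above and 157 (1.07%) below. Counts of list members apart, given below, are to be read beside these shares. They are not independent evidence where the study named the member. An exact permutation test over the 70 arrangements of 4 libraries against 4 cannot give a p below 0.0286, the value of any gene whose groups are apart.

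The spread between libraries set what could be seen, and it depended on level. The median standard error of a log2 fold-change was 0.70 for 5521 genes of 1 to 10 TPM, 0.51 for those of 10 to 30 TPM, 0.35 for those of 30 to 100 TPM, 0.24 for the next 1680 genes and 0.16 for the 110 most abundant. The 95% interval lay within -1 and 1, that is within a 2-fold difference on this scale either way, for 3491 genes (23.9%). This held for none of the genes of 1 to 10 TPM and for 60.4% of the 5251 genes of at least 30 TPM. Over the genes of at least 30 TPM, pairs of CTA libraries correlated no better (mean r = 0.832) than a CTA with a taste control library (mean r = 0.843). The closest pair was CTA 2 with taste control 1 (r = 0.921), and the libraries with the lowest mean correlation were CTA 4 (r = 0.817) and taste control 3 (r = 0.808). The read depth of each library cannot be had from TPM.

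**Figure D1:**
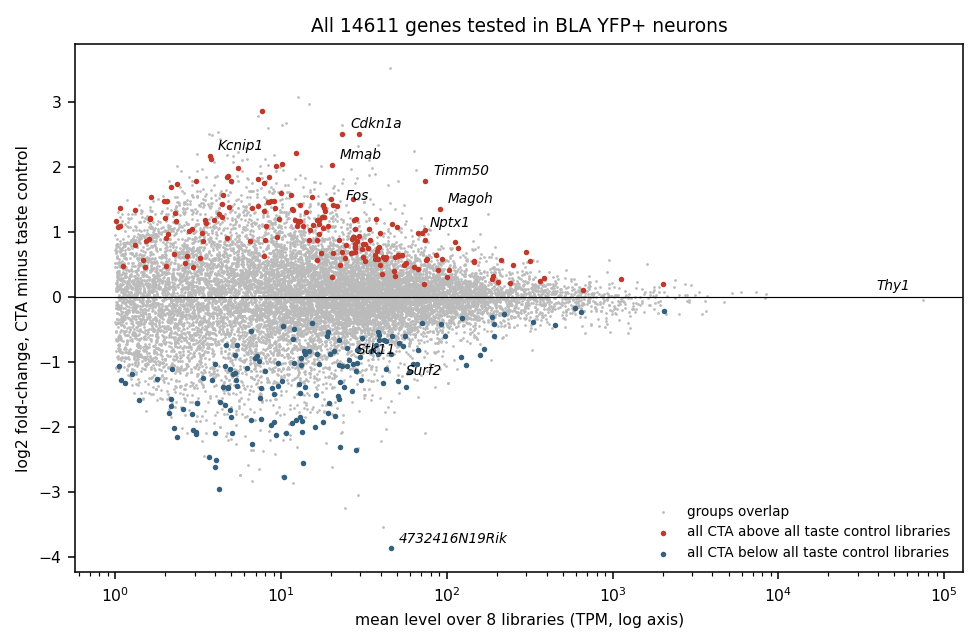
Each point is a gene in BLA YFP+ neurons, with the mean level over 8 libraries (TPM, log axis) across and the log2 fold-change of CTA minus taste control up. Red points (191 genes) have the 4 CTA values highest, blue points (157) have them lowest, and grey points overlap. The cloud narrows with level, and *Thy1*, at the far right, lies near 0.

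The study selected genes with a fold-change of means of at least 2 or at most 0.5, a p under 0.01 in an unpaired test of TPM and a level of at least 30 TPM. Applied to the libraries, with the level asked of the higher group, these criteria gave 20 genes (0.137% of 14611), 8 higher and 12 lower, and with the level asked of the mean of all 8 libraries 10 genes (0.0684%). The count of 10 became 6 without CTA 4 and 19 without CTA 2. The 20 genes, with *Nptx2* and *Mark2*, are the 22 that the study named for this comparison. Their selection used these same libraries, so that neither a gap between groups nor a p is independent evidence, and their values are a description.

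The smallest limma p of any gene higher after CTA was that of *Magoh*, which encodes part of the exon junction complex laid on spliced mRNA. It had 129, 72.0, 151 and 175 TPM in CTA libraries, against 54.4, 48.2, 42.5 and 49.2 TPM in taste control libraries. CTA 2 held the lowest of the CTA values and still lay above the highest taste control. The difference was 1.36 (standard error 0.29, 95% interval 0.72 to 1.99), and it lay between 1.20 and 1.62 over the fits without 1 library. *Magoh* is on chromosome 4 of GRCm38 from 107879755 to 107887424.

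*Nptx1*, whose secreted pentraxin gathers AMPA receptors at excitatory synapses, had the smallest standard error of the 22 genes, 0.24. Its levels were 80.5, 95.3, 93.7 and 107 TPM after CTA, against 45.1, 46.5, 51.6 and 43.0 TPM in taste control, a difference of 0.99 (95% interval 0.48 to 1.51). The related pentraxin *Nptx2* was less even, at 68.4, 72.2, 32.9 and 40.0 TPM after CTA, against 26.4, 23.6, 25.1 and 25.4 TPM in taste control. Its taste control libraries were nearly equal, CTA 1 and CTA 2 were far above them, and CTA 3 came closest to them. *Nptx1* lies on chromosome 11 from 119538719 to 119547753 and *Nptx2* on chromosome 5 from 144545902 to 144557478.

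*Fos* had 40.9, 31.9, 19.9 and 34.0 TPM after CTA, against 17.3, 5.78, 8.64 and 16.4 TPM in taste control. The lowest CTA library, CTA 3, was only slightly above the highest taste control, and taste control 2 and 3 were the low ones. *Mmab*, an adenosyltransferase that makes the cobalamin cofactor of methylmalonyl-CoA mutase, showed the largest positive difference of the 22, 2.04 (95% interval 0.88 to 3.20). It had 25.1, 30.2, 32.9 and 38.8 TPM after CTA, against 16.6, 4.15, 2.39 and 11.5 TPM in taste control, and most of the spread was among the taste controls. *Nudt21*, a subunit of the cleavage factor that places poly(A) sites, had 62.7, 77.9, 48.2 and 64.4 TPM after CTA, against 23.3, 47.6, 21.8 and 25.5 TPM in taste control. Taste control 2 nearly reached CTA 3. *Ric8*, annotated as *Ric8a*, folds G protein alpha subunits and held 66.4, 65.8, 78.4 and 58.1 TPM after CTA, against 38.7, 36.1, 37.3 and 18.1 TPM in taste control.

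*1110008F13Rik*, annotated as *Rab5if*, had 82.1, 115, 83.1 and 118 TPM after CTA, against 47.4, 40.6, 44.2 and 59.2 TPM in taste control, and *Kbtbd4*, a substrate adaptor of a ubiquitin ligase, had 36.2, 39.4, 56.1 and 51.2 TPM after CTA, against 21.9, 25.6, 14.4 and 25.5 TPM in taste control. These were the last of the 8 higher genes. *Ric8*, *1110008F13Rik* and *Kbtbd4* share exon bases with protein-coding genes on the opposite strand (*Bet1l* and *Sirt3*, *Sla2*, and *Ndufs3*). The sources used here do not state whether counting used strand, so reads of such neighbours may be mixed. Of the 41 genes named by the study or by their smallest p, 13 shared exon bases with another protein-coding gene, and each is marked where it is described.

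Among the lower genes, *Stk11*, the kinase LKB1 that phosphorylates the activation loop of AMP-activated kinase and its relatives, had 19.8, 18.3, 14.5 and 15.4 TPM after CTA, against 37.4, 32.7, 38.9 and 27.3 TPM in taste control. Its difference was -0.96 (95% interval -1.68 to -0.24), and its exons overlap those of *Cbarp* on the other strand. *Surf2* was more clearly apart, with 22.6, 32.1, 32.6 and 28.1 TPM after CTA, against 54.4, 81.2, 75.0 and 77.8 TPM in taste control, but it too shares exon bases with neighbours, *Surf1* and *Surf4*. *Vkorc1*, the vitamin K epoxide reductase that is the target of warfarin, had 18.0, 33.4, 50.7 and 25.3 TPM after CTA, against 100.7, 61.9, 65.7 and 94.98 TPM in taste control. *Kank3*, an ankyrin repeat protein, had 4.94, 8.73, 14.6 and 5.83 TPM after CTA, against 38.1, 33.7, 22.4 and 25.8 TPM in taste control, and overlaps *Rps28*. *Lrrn1*, a leucine-rich repeat membrane protein of neurons, had 21.7, 10.7, 11.2 and 14.8 TPM after CTA, against 30.5, 29.6, 34.2 and 25.7 TPM in taste control, with CTA 1 the nearest to them. *Trpc1*, a subunit of receptor-activated cation channels, had 9.18, 19.3, 19.3 and 12.3 TPM after CTA, against 31.8, 30.9, 25.8 and 37.2 TPM in taste control. Among the last 4 genes the gap was narrowest for *Lrrn1*, and *Vkorc1* also shares exon bases with *Gm21974* on its own strand.

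*Prpf6*, a scaffold of the U5 particle of the spliceosome, had 12.4, 24.8, 18.9 and 18.7 TPM after CTA, against 34.0, 47.1, 41.5 and 30.9 TPM in taste control. *Tctex1d2*, a dynein-2 light chain, had 35.9, 43.5, 53.7 and 29.9 TPM after CTA, against 61.1, 92.8, 100.8 and 80.2 TPM in taste control, and *Tmem107*, of the ciliary transition zone, had 0.3, 13.2, 5.70 and 20.5 TPM after CTA, against 27.1, 31.4, 33.3 and 50.3 TPM in taste control. CTA 1 nearly lacked *Tmem107*, and its 95% interval, -3.88 to -0.74, was the widest of the 22. The membrane protein *Gpr108* had 18.9, 18.9, 7.03 and 12.3 TPM after CTA, against 47.6, 24.5, 44.0 and 39.4 TPM in taste control. *Tmem136*, another, had 15.4, 6.05, 17.2 and 14.9 TPM after CTA, against 32.2, 29.0, 39.4 and 37.2 TPM in taste control. In *Gpr108* taste control 2 was the low control, and in *Tmem136* CTA 2 was the low CTA library. *D10Wsu102e* was the only 1 of the 22 whose groups overlapped, with 20.8, 30.0, 14.02 and 15.4 TPM after CTA, against 29.9, 45.2, 39.7 and 46.0 TPM in taste control, since CTA 2 reached taste control 1 (exact permutation p = 0.0571), and its exons overlap *Aldh1l2*.

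**Figure D2:**
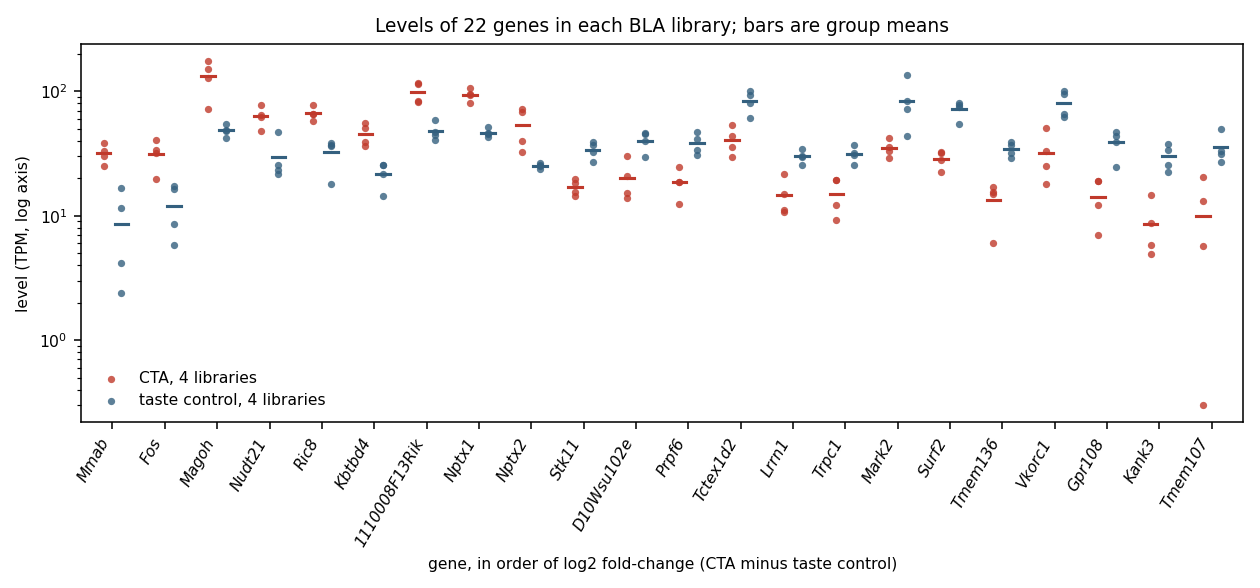
Levels (TPM, log axis) of the 22 genes the study named, 1 point per library and a bar at the group mean, with CTA in red left of taste control in blue, in order of log2 fold-change. The groups are apart for 21 of 22 genes, by a narrow gap in *Fos*, *Nudt21* and *Mark2*, and overlap in *D10Wsu102e*.

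Genes outside the study's list were named where the groups were apart at 30 TPM or more, in order of limma p, a choice that used the same difference. At that level 106 of 5251 genes (2.02%) had groups apart, of which 64 (1.22%) had CTA above and 42 (0.8%) below. Those with a known place in mitochondria are given first, which groups them for reading only. *Timm50*, the receptor of the inner membrane translocase, had 187, 68.9, 48.8 and 169.6 TPM after CTA, against 35.2, 23.3, 20.6 and 40.0 TPM in taste control, with CTA 1 and CTA 4 far above CTA 2 and CTA 3. *Pam16* of the import motor, whose exons overlap *Glis2*, had 347, 289, 453 and 396 TPM after CTA, against 263, 177, 235 and 239.9 TPM in taste control. *Glrx5*, which hands on iron-sulfur clusters, had 64.5, 91.0, 132 and 73.2 TPM after CTA, against 45.5, 51.8, 30.6 and 48.3 TPM in taste control. The mitochondrial ribosomal transcripts *Mrpl20* and *Mrps18a* lay on opposite sides, *Mrpl20* at 440.4, 378, 308 and 376 TPM after CTA, against 301, 276, 264 and 186 TPM in taste control, and *Mrps18a* at 58.9, 114, 81.9 and 85.1 TPM after CTA, against 154, 165, 125 and 189 TPM in taste control. *Mpv17l2*, a factor of mitochondrial ribosome assembly that overlaps *Rab3a*, had 43.6, 41.8, 48.1 and 75.6 TPM after CTA, against 27.5, 14.7, 19.5 and 26.9 TPM in taste control.

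Among the others, *Zmym2*, a zinc finger protein of chromatin complexes, had 131, 134, 143 and 160.2 TPM after CTA, against 67.1, 130.1, 68.8 and 60.7 TPM in taste control, and taste control 2 came within 1 TPM of CTA 1. *Emc10*, a subunit of the membrane protein insertase of the endoplasmic reticulum, had 243, 243, 229 and 304 TPM after CTA, against 149, 197, 164 and 174 TPM in taste control, with the narrowest interval of the 30 genes so chosen (0.16 to 0.98). On the lower side, *4732416N19Rik* had the largest difference of the named genes, -3.86, with 5.32, 7.75, 6.90 and 0 TPM after CTA, against 46.9, 20.3, 163 and 116 TPM in taste control. It is a locus without a settled gene type, and its exons overlap *Ergic2* on the other strand. *Ctsd*, the lysosomal protease cathepsin D, which overlaps *Gm49369* on its own strand, had 185, 166, 122 and 140.1 TPM after CTA, against 226, 238, 225 and 224 TPM in taste control, where 3 of 4 libraries were within 2 TPM of each other. *Fabp5*, a fatty acid-binding protein, had 91.3, 133, 161 and 69.7 TPM after CTA, against 199, 187, 225 and 196 TPM in taste control. *Dpm3*, which anchors the enzyme that makes dolichol-phosphate mannose, had 46.3, 112, 106 and 87.4 TPM after CTA, against 163, 147, 194 and 190.2 TPM in taste control.

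*Snrpf*, a Sm core protein of spliceosomal particles whose gene overlaps *Ccdc38*, had 58.1, 54.1, 45.5 and 21.9 TPM after CTA, against 87.3, 99.3, 78.8 and 84.7 TPM in taste control. *Actl6b*, a neuron-specific subunit of BAF chromatin remodelers, had 28.4, 25.3, 32.1 and 17.8 TPM after CTA, against 37.7, 35.5, 75.4 and 92.6 TPM in taste control, with taste control 3 and 4 above the other controls. *Hspb11*, also a subunit of intraflagellar transport, had 44.1, 44.8, 50.5 and 50.6 TPM after CTA, against 80.3, 91.1, 119 and 56.6 TPM in taste control. *Nrep* had 122, 121, 149 and 97.0 TPM after CTA, against 216, 174, 269.8 and 192 TPM in taste control, *Ppp1r13b* 32.05, 45.8, 26.3 and 26.5 against 50.8, 56.8, 77.0 and 54.2 TPM and *Eapp* 22.6, 20.3, 16.3 and 22.8 against 53.2, 129, 39.7 and 27.5 TPM. Taste control 4 was the lowest control for *Hspb11* and *Eapp*, and taste control 2 the highest for *Eapp*.

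Rapid immediate early genes lay higher as a list. Of 26 tested, 21 had a positive log2 fold-change and 5 a negative one, with a median of 0.55, where 52.1% of all genes were positive and their median was 0.02. None passed the test, and 4 had an unadjusted p under 0.05 (limma), all of them higher, where 1.89% of all genes were higher at that p. *Fos*, which the study selected on these same libraries, was 1 of the 4. Without *Fos* 20 of 25 members were higher, with a median of 0.55. *Egr2* and *Klf4*, counted as higher, averaged 0.76 and 0.78 TPM in taste control. They passed the limit of 1 TPM only through CTA, so their direction largely followed from the limit. The list was made from genes known to respond to activity, with earlier results of these libraries known. *Egr3*, a zinc finger factor, had 101.3, 155, 86.1 and 101.4 TPM after CTA, against 48.6, 66.5, 56.4 and 91.8 TPM in taste control, and taste control 4 passed CTA 3. *Arc*, whose protein removes AMPA receptors from synapses, had 30.2, 84.3, 41.8 and 27.7 TPM after CTA, against 17.8, 28.4, 15.7 and 23.3 TPM in taste control. *Fosb* had 12.4, 38.2, 14.5 and 36.2 TPM after CTA, against 6.59, 2.64, 9.55 and 19.9 TPM in taste control, and *Egr1* had 142, 323, 176 and 189 TPM after CTA, against 114, 124, 127 and 181 TPM in taste control. In *Arc* and *Egr1* the highest CTA value came from CTA 2, and 1 taste control lay above the lowest CTA library.

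The nuclear receptor *Nr4a1* had 33.2, 34.1, 30.6 and 39.3 TPM after CTA, against 19.8, 26.4, 21.5 and 16.5 TPM in taste control, so that its groups were apart although its difference of 0.69 had a 95% interval that reached -0.01. Only *Fos* and *Nr4a1* of the list had all CTA libraries above, and *Jund*, named after its values were seen, had them all below, at 10.8, 15.6, 20.01 and 15.99 TPM after CTA, against 20.7, 20.9, 20.9 and 29.0 TPM in taste control. The most abundant member, *Junb*, had 265, 230.1, 201 and 226 TPM after CTA, against 213, 352, 169 and 391 TPM in taste control, a difference of -0.21. *Jun*, also named after its values were seen, had 30.1, 65.3, 82.5 and 83.6 TPM after CTA, against 50.4, 52.1, 55.8 and 32.8 TPM in taste control, and CTA 1 was the lowest of all 8. *Npas4*, the neuron-specific factor named here after its values were seen, had 21.5, 95.1, 12.8 and 18.8 TPM after CTA, against 17.6, 11.6, 13.9 and 33.9 TPM in taste control, and only CTA 2 stood out. CTA 2 was the highest library of the list as a whole. The median deviation of its members from their 8-library mean was 0.79 in CTA 2 and 0.14, 0.06 and 0.30 in CTA 1, 3 and 4, against -0.31, -0.06, -0.33 and -0.20 in taste control 1 to 4. All 4 CTA libraries were thus above all taste control libraries in this measure, CTA 3 by the least. By summed level the groups of the same list overlapped. CTA 2 and CTA 4, at 1612 and 1241 TPM, lay above every control sum. CTA 1 and CTA 3, at 1057 and 967 TPM, lay below taste control 4 at 1086 TPM. CTA 3 was also lower than taste control 2, whose sum was 1021 TPM. Without CTA 2 the median log2 fold-change of the list was 0.35, and without CTA 3 it was 0.76.

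Delayed synaptic and secreted effectors had 22 of 24 members with a positive log2 fold-change and a median of 0.38, and *Nptx1* and *Nptx2* were the only members whose groups were apart. Without these 2 the count was 20 of 22 and the median 0.34. *Ptgs2*, the inducible cyclooxygenase, had 20.9, 38.7, 15.7 and 13.1 TPM after CTA, against 10.7, 13.7, 4.45 and 11.5 TPM in taste control, and overlapped by CTA 4. *Inhba*, the activin A subunit, had 17.5, 87.2, 1.73 and 36.0 TPM after CTA, against 3.02, 11.7, 6.14 and 4.32 TPM in taste control, with CTA 2 highest and CTA 3 lowest of all 8. *Kcna1*, a Kv1 channel, had 73.7, 66.8, 59.3 and 81.0 TPM after CTA, against 66.1, 38.7, 40.0 and 57.4 TPM in taste control. The most abundant members were level, *Rasgrp1* at 783, 759, 711 and 921 TPM after CTA, against 809.7, 654, 782 and 931 TPM in taste control, with a 95% interval of -0.33 to 0.34, and *Lingo1* with an interval of -0.28 to 0.46. The neurotrophin *Bdnf*, named after its values were seen, had 43.2, 50.1, 33.8 and 73.2 TPM after CTA, against 32.9, 18.5, 45.2 and 61.4 TPM in taste control, a difference of 0.40 (standard error 0.39) and overlapping groups. By list median the deviations were 0.11, 0.46, -0.10 and 0.22 in CTA 1 to 4, against -0.34, -0.29, -0.14 and 0.01 in taste control 1 to 4, so that here the groups overlapped.

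Activity feedback regulators had 20 of 29 members higher and a median of 0.33, with *Pim3* the only member apart other than *Dusp4*. *Pim3*, a serine kinase, had 6.03, 8.36, 5.05 and 6.16 TPM after CTA, against 4.63, 0.61, 2.19 and 2.25 TPM in taste control. *Dusp4*, a MAP kinase phosphatase, had 0.77, 7.40, 0.34 and 0.06 TPM after CTA and was listed at 0 in all 4 taste control libraries. It passed the limit of 1 TPM only through CTA 2, so its groups had to differ, and no fold is given. *Spred2*, an inhibitor of Ras to ERK signals, had 96.8, 115, 93.5 and 789 TPM after CTA, against 164, 33.7, 75.8 and 55.4 TPM in taste control, and CTA 4 was far above the other 7 libraries, without which the difference was 0.54 in place of 1.27. *Plk2*, a polo-like kinase of synaptic scaling, was the most abundant, with 271, 345, 276 and 303 TPM after CTA, against 307, 248, 218 and 209.8 TPM in taste control. Taste control 1 lay within the CTA range. The list median deviated by 0.67 in CTA 2 and by -0.13 to 0.08 in the other CTA libraries, against -0.55 to 0.20 in taste control. Without taste control 3 the median log2 fold-change of the list was 0.10.

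**Figure D3:**
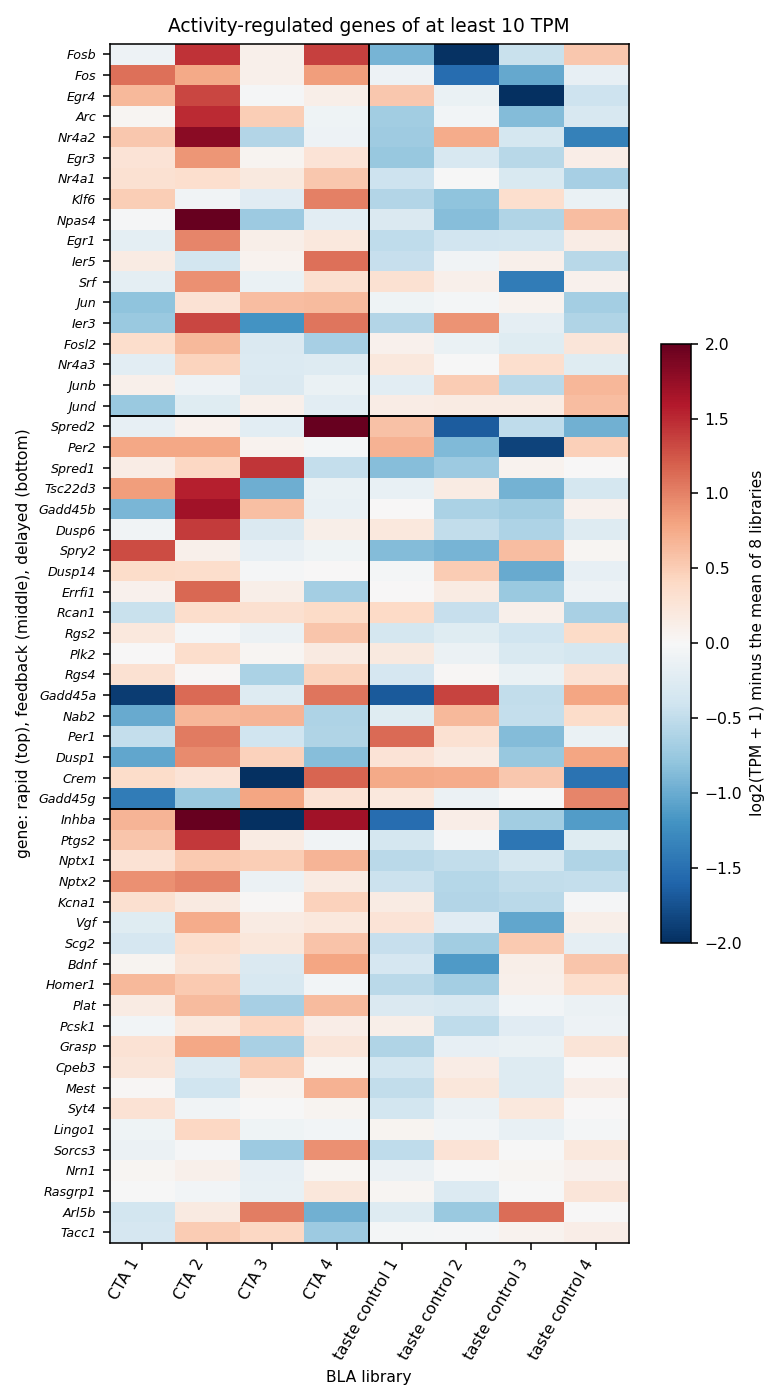
Rows are 58 activity-regulated genes that averaged 10 TPM or more (18 rapid, 19 feedback, 21 delayed) and columns are the 8 BLA libraries, CTA left of taste control. Color gives log2(TPM + 1) minus the gene's mean over 8 libraries, with values beyond 2 in either direction drawn as 2. CTA 2 is reddest among the rapid genes, *Fos* and *Nr4a1* are redder in every CTA than in every taste control library, and *Spred2* is high in CTA 4 alone.

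Neuropeptides, another class of genes that activity moves, were even, with 9 of 20 higher and a median of 0.00. *Penk*, the enkephalin precursor, had 27.2, 37.2, 29.9 and 26.5 TPM after CTA, against 36.7, 17.8, 8.65 and 4.52 TPM in taste control. Its taste controls differed by library, and the GABAergic marker *Gad2* did likewise, at 17.1, 22.5, 24.6 and 30.4 TPM after CTA, against 30.6, 33.1, 2.41 and 2.16 TPM in taste control. *Cck*, the cholecystokinin precursor, was the most abundant peptide gene after the processing enzyme *Cpe*, at 2573, 4028, 4063 and 2996 TPM after CTA, against 3669.6, 4017, 3649 and 4255 TPM in taste control (95% interval of the difference -0.55 to 0.12). *Grp*, which encodes gastrin-releasing peptide, had 188, 112, 69.3 and 133 TPM after CTA, against 162, 100.4, 214 and 207 TPM in taste control.

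STK11 acts in a complex with the pseudokinase STRAD and the scaffold MO25, and its substrates are the AMP-related kinases. Of the 24 genes of the complex and of energy sensing, 12 were higher and 12 lower, with a median of 0.00, and *Stk11* was the only member whose groups were apart. *Stk11ip*, an STK11-binding protein, had 9.01, 7.88, 13.4 and 14.6 TPM after CTA, against 20.7, 10.7, 42.6 and 13.6 TPM in taste control. *Map3k7*, a kinase reported to phosphorylate AMP kinase, had 45.1, 41.8, 33.2 and 53.0 TPM after CTA, against 29.4, 26.1, 38.1 and 27.1 TPM in taste control, and *Rheb*, the GTPase that activates mTORC1, had 266, 212, 205 and 237 TPM after CTA, against 139.6, 146, 239.8 and 215 TPM in taste control. Taste control 3 and 4 lay within the CTA range of *Rheb*.

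Of 12 AMP-related kinases 8 were higher and 4 lower, with a median of 0.18 (-0.01 without taste control 4, 0.36 without CTA 3). The groups of *Mark2* and *Nuak1* were apart, both with CTA below, where 1.07% of all genes had CTA below. The study named *Mark2* on these same libraries. *Mark2*, which phosphorylates microtubule-associated proteins, had 33.0, 35.8, 41.9 and 28.9 TPM after CTA, against 72.1, 135, 43.8 and 84.1 TPM in taste control. Taste control 2 was far above the others and taste control 3 just above CTA 3, and the difference was -1.14 (95% interval -1.88 to -0.40). *Nuak1* had 5.08, 6.21, 8.54 and 4.30 TPM after CTA, against 9.40, 15.1, 11.9 and 15.9 TPM in taste control. *Prkaa1*, the alpha 1 subunit of AMP kinase itself, was even after CTA and uneven in the controls, at 10.1, 10.1, 10.7 and 12.7 TPM after CTA, against 11.8, 22.4, 12.04 and 41.8 TPM in taste control. *Sik2*, a salt-inducible kinase that holds CREB coactivators in the cytoplasm, ran the other way, with 16.2, 33.0, 12.3 and 18.1 TPM after CTA, against 16.4, 11.1, 7.41 and 8.5 TPM in taste control. *Mark3* and *Sik3*, the most abundant members, had 95% intervals of -0.50 to 0.95 and -0.40 to 1.17.

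At the synapse, 15 of 22 genes of AMPA receptors and their auxiliary subunits were higher and 7 lower, with a median of 0.17 (0.04 without taste control 3). The scaffold *Grip1*, which binds GluA2, had 11.7, 18.7, 27.3 and 11.7 TPM after CTA, against 7.32, 8.01, 3.71 and 11.0 TPM in taste control, and was the only member whose groups were apart. CTA 1 and CTA 4 were within 1 TPM of taste control 4. *Cacng7*, a TARP subunit, had 19.8, 20.2, 26.6 and 27.8 TPM after CTA, against 26.4, 4.04, 15.1 and 3.74 TPM in taste control, with taste control 2 and 4 low. *Gria2*, the subunit that makes AMPA receptors impermeable to calcium, was even at 825, 607, 624 and 739 TPM after CTA, against 619, 662, 654 and 722 TPM in taste control (95% interval of the difference -0.27 to 0.39). Leucine-rich repeat adhesion genes were balanced, with 19 of 39 higher and a median of -0.01. *Lrrn1* was the only member whose groups were apart. *Nrxn2*, a presynaptic neurexin, had 58.2, 67.1, 36.2 and 56.1 TPM after CTA, against 38.6, 29.0, 25.9 and 26.7 TPM in taste control, where taste control 1 alone lay above CTA 3.

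Among genes that set excitability, potassium and HCN channels had 36 of 53 genes higher and 17 lower, with a median of 0.08, and the groups of 2 were apart, where 2.38% of all genes were. *Kcnip1*, a KChIP subunit of A-type channels, had 6.63, 6.04, 5.69 and 7.66 TPM after CTA, against 2.64, 0.07, 0.03 and 0.85 TPM in taste control, with even values after CTA and 2 controls near 0. Its taste control mean was 0.90 TPM. It passed the limit of 1 TPM only through CTA, so its gap is not free of that limit. *Kcnd1*, a pore subunit of A-type channels, had 0.19, 3.18, 0.32 and 0.54 TPM after CTA, against 14.7, 25.2, 0.56 and 9.53 TPM in taste control, and taste control 3 was as low as the CTA libraries. *Kcnj4*, an inward rectifier, had 14.6, 22.9, 19.6 and 26.6 TPM after CTA, against 49.1, 34.6, 32.9 and 30.6 TPM in taste control. *Kcna4* had 5.89, 9.02, 15.5 and 11.6 TPM after CTA, against 21.9, 11.6, 28.0 and 23.2 TPM in taste control.

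Of 33 entries for sodium, calcium and TRPC channels, 16 were higher and 17 lower, with a median of -0.05. One of several entries of *Cacnb2*, a calcium channel beta subunit, had 124, 73.2, 77.7 and 106 TPM after CTA, against 55.5, 36.1, 44.3 and 69.5 TPM in taste control. Another entry of *Cacnb2*, with a mean of 7.4 TPM, overlapped, with a difference of 0.21 (standard error 0.85). *Scn2a1*, the sodium channel of excitatory neurons, had 213, 198, 198 and 252 TPM after CTA, against 204, 193, 240.2 and 205 TPM in taste control (95% interval of the difference -0.37 to 0.42). *Cacna1a* differed mostly by taste control 3, with 20.9, 36.8, 26.3 and 36.1 TPM after CTA, against 19.6, 37.7, 132 and 46.2 TPM in taste control. Among heterotrimeric G proteins and their regulators 23 of 45 entries were higher, with a median of 0.02. Besides *Ric8*, *Gng7*, a gamma subunit, had CTA above, at 24.4, 27.9, 34.0 and 18.5 TPM after CTA, against 16.5, 6.70, 11.9 and 12.6 TPM in taste control. *Gnb2* had 39.2, 65.5, 17.7 and 22.6 TPM after CTA, against 62.2, 63.8, 48.3 and 64.4 TPM in taste control, and CTA 2 lay above all its controls. *Rgs5*, which is also a marker of pericytes, had 22.3, 19.6, 4.02 and 5.18 TPM after CTA, against 0.82, 1.99, 0.57 and 14.8 TPM in taste control. The 12 markers of endothelial and mural cells, *Rgs5* among them, summed to 18.5 to 26.8 TPM after CTA and to 0.88 to 34.2 TPM in taste control, and their part in the value was not tested.

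The exon junction complex is laid on mRNA at splicing and, with the UPF proteins, sends faulty transcripts to decay. For the exon junction complex and nonsense-mediated decay, 18 of 24 were higher and 6 lower, with a median of 0.28 (0.18 without taste control 4), and only *Magoh* had its groups apart. Summed over the 24 genes the libraries held 1046, 1031, 1216 and 1236 TPM after CTA, against 978, 920.4, 842 and 943 TPM in taste control, with no overlap. Without *Magoh* the sums were 917, 959, 1064 and 1061 TPM after CTA, against 924, 872, 799.9 and 894 TPM in taste control, and CTA 1 then lay below taste control 1. The cap-binding subunits *Ncbp2* and *Ncbp1* were among the higher members, *Ncbp2* at 99.4, 95.8, 114 and 90.3 TPM after CTA, against 61.7, 54.5, 41.1 and 104 TPM in taste control, and *Ncbp1* at 40.3, 32.7, 40.0 and 24.4 TPM after CTA, against 28.1, 16, 11.4 and 34.3 TPM in taste control. In both, taste control 4 lay within or above the CTA range.

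Cleavage and polyadenylation factors had 13 of 22 higher and a median of 0.04, with *Nudt21* the only member apart. Proteins of the U4/U6.U5 tri-snRNP had 15 of 25 entries higher and a median of 0.07 (-0.12 without taste control 3). Besides *Prpf6*, *Cd2bp2*, a U5-associated protein, lay below, at 16.2, 23.6, 20.9 and 12.99 TPM after CTA, against 33.4, 36.4, 29.8 and 27.3 TPM in taste control. *Lsm2*, of the ring that binds U6, had 24.2, 28.8, 61.8 and 64.8 TPM after CTA, against 14.9, 37.8, 11.2 and 15.2 TPM in taste control, with taste control 2 high. Mitochondrial protein import was balanced, with 20 of 39 entries higher and a median of 0.04 (-0.06 without CTA 1). Besides *Timm50* and *Pam16*, *Tomm40l*, a paralog of the outer membrane pore *Tomm40* that is named after its values were seen, had CTA above, at 38.5, 59.7, 38.4 and 59.3 TPM after CTA, against 36.6, 37.0, 14.7 and 29.0 TPM in taste control. *Immp1l*, a subunit of the inner membrane peptidase, had 86.3, 50.7, 79.0 and 67.9 TPM after CTA, against 54.6, 23.1, 62.6 and 7.12 TPM in taste control, and overlapped, since CTA 2 lay below taste control 1 and 3. The list's most abundant member, *Timm8b*, a chaperone of the intermembrane space, had 970.0, 1049.5, 1081 and 707 TPM after CTA, against 1306, 919, 1059.9 and 1180.4 TPM in taste control. One entry of *Timm10b* had 62.9, 76.3, 82.7 and 83.5 TPM after CTA, against 90.4, 155, 149 and 83.9 TPM in taste control, so that its groups were apart by under 1 TPM. Another entry of *Timm10b*, with a mean of 4.16 TPM, overlapped and lay the other way, at 0.38 (standard error 0.84).

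The lists built around the metabolic and ciliary genes of the study showed those genes and few others. In cobalamin and propionate metabolism 7 of 18 were higher, with a median of -0.07 (-0.25 without taste control 4), and *Mmab* alone was apart. *Mmadhc*, which traffics cobalamin, had 47.9, 37.2, 112 and 77.6 TPM after CTA, against 71.9, 124, 59.6 and 203 TPM in taste control. In the vitamin K cycle 7 of 13 entries were higher, with a median of 0.10 (-0.13 without taste control 3), and *Vkorc1* alone was apart. Its paralog *Vkorc1l1* had 45.5, 63.2, 49.8 and 157 TPM after CTA, against 84.9, 62.0, 77.6 and 41.6 TPM in taste control. For the primary cilium 16 of 42 were higher and 26 lower, with a median of -0.08 (-0.23 without taste control 3), and *Tctex1d2* and *Tmem107* were apart. *Wdr60*, an intermediate chain of dynein-2, had 14.9, 12.2, 8.32 and 1.79 TPM after CTA, against 23.2, 35.0, 10.6 and 23.6 TPM in taste control, with CTA 4 lowest and taste control 3 within the CTA range. *Mks1*, of the transition zone, ran the other way, with 4.01, 5.19, 6.03 and 0.48 TPM after CTA, against 0.44, 0.14, 0.67 and 1.51 TPM in taste control. Its taste control mean was 0.69 TPM, so it passed the limit of 1 TPM only through CTA.

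CTA mice had received lithium, which inhibits inositol monophosphatase and GSK-3. Of 23 entries for its targets and their pathways 14 were higher and 9 lower, with a median of 0.07. *Axin1*, the scaffold that presents beta-catenin to GSK-3, was the only member apart, at 2.00, 2.25, 3.55 and 2.59 TPM after CTA, against 7.41, 12.3, 4.2 and 8.34 TPM in taste control. *Ctnnb1*, beta-catenin itself, had 618, 399, 608 and 846 TPM after CTA, against 353, 538, 581 and 563 TPM in taste control. *Isyna1*, which makes inositol, had 15.6, 22.9, 83.0 and 40.5 TPM after CTA, against 19.1, 25.5, 8.71 and 14.3 TPM in taste control, with CTA 3 and CTA 4 above the controls and CTA 1 and CTA 2 among them.

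Glucocorticoid-responsive genes had 13 of 24 higher and a median of 0.20, which was -0.11 without taste control 3 and -0.33 over the 3 members of at least 30 TPM. The groups of *Cdkn1a* and *Fkbp5* were apart, with CTA above, where 1.31% of all genes had CTA above. *Fkbp5*, a chaperone of the glucocorticoid receptor that hormone induces, had 10.8, 30.8, 20.9 and 9.12 TPM after CTA, against 7.18, 5.26, 5.46 and 4.91 TPM in taste control. *Cdkn1a*, an inhibitor of cell cycle kinases, had 9.84, 69.9, 9.84 and 78.3 TPM after CTA, against 8.03, 4.58, 0.75 and 6.13 TPM in taste control, with CTA 1 and CTA 3 close to the controls. *Mt1*, a metallothionein, lay lower in most libraries, at 48.3, 84.6, 76.5 and 34.7 TPM after CTA, against 138, 117, 119 and 63.4 TPM in taste control. *Sgk1*, another hormone-induced kinase, had 21.6, 28.4, 3.99 and 19.5 TPM after CTA, against 15.2, 18.1, 59.5 and 27.1 TPM in taste control, and overlapped.

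In cholesterol synthesis and uptake 18 of 26 genes were higher and 8 lower, with a median of 0.17 (0.01 without CTA 4), and no groups were apart. *Insig1*, whose protein is a brake on SREBP processing, had 13.4, 35.7, 18.9 and 64.6 TPM after CTA, against 7.91, 13.5, 4.34 and 7.72 TPM in taste control, with CTA 1 just under taste control 2. *Sqle*, squalene epoxidase, had 79.8, 83.0, 68.0 and 58.1 TPM after CTA, against 60.1, 46.1, 47.7 and 31.7 TPM in taste control. *Hmgcs1*, the most abundant member, overlapped, with a 95% interval of -0.57 to 0.60. Transcripts of large ribosomal subunit proteins had 15 of 44 higher and 29 lower, with a median of -0.13 (-0.01 without CTA 1). *Rpl27a* was the only member apart, at 275, 422, 414 and 442 TPM after CTA, against 511, 502, 574 and 468 TPM in taste control, and CTA 1 was far below the other 7 libraries. In CTA 1 and CTA 4 the list's members deviated by a median of -0.24 and -0.19, and in CTA 2 and CTA 3 by 0.28 and 0.08, against 0.28, 0.07, -0.04 and -0.01 in taste control 1 to 4. Of 17 interferon and cytokine genes 9 were higher, and *Nfkb1*, at 0.42, 1.74, 1.05 and 1.97 TPM after CTA, against 2.76, 6, 16.98 and 3.40 TPM in taste control, was the member apart.

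**Figure D4:**
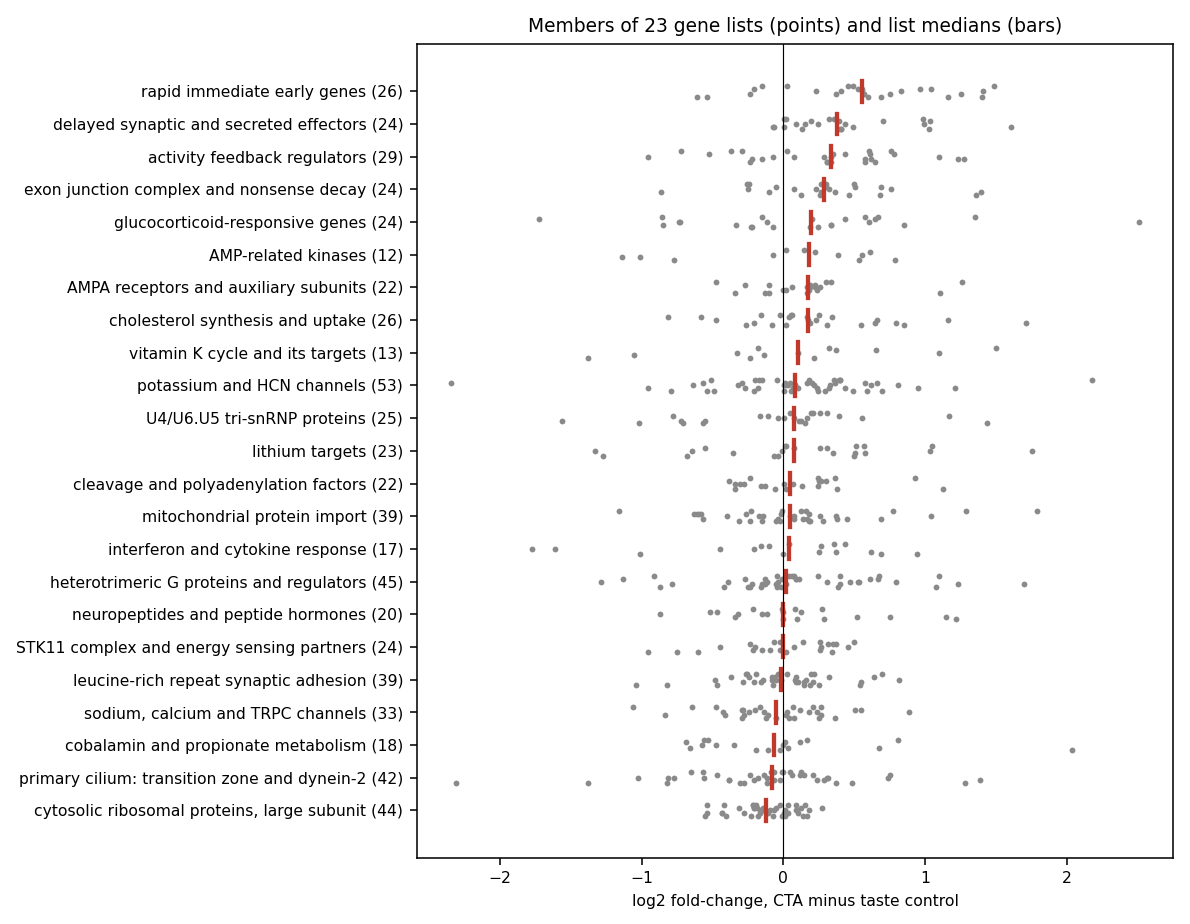
Each grey point is a member of 1 of 23 gene lists, placed by its log2 fold-change of CTA minus taste control, with the number of entries tested in parentheses and a red bar at the list's median. Medians run from 0.55 for rapid immediate early genes to -0.13 for ribosomal proteins, and members of each list lie on both sides of 0.

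The steadiest genes of at least 100 TPM were picked as such, so their narrow intervals near 0 follow from the choice. They do not measure how small a difference could have been seen. The median standard error was 0.24 for the 1680 genes next below the 110 most abundant, and 0.16 for those 110. *Snap25*, a SNARE protein of synaptic vesicle fusion, had 8376, 9012, 9133 and 7865 TPM after CTA, against 8649, 7098, 8868 and 8756 TPM in taste control, and a 95% interval of -0.19 to 0.28. *Calm2*, a calmodulin gene, had 8044, 7336, 9108 and 8484 TPM after CTA, against 7085, 8061, 8624 and 9451 TPM in taste control (interval -0.26 to 0.25). The chaperone *Hspa8* had 2729, 3089, 2516 and 2993 TPM after CTA, against 2902, 3039, 2461 and 2692 TPM in taste control (interval -0.24 to 0.29). The 14-3-3 genes *Ywhae* and *Ywhag* had intervals of -0.29 to 0.29 and -0.27 to 0.30, the membrane protein gene *Rtn1* one of -0.26 to 0.30 and the most abundant entry of *Gnas*, the stimulatory G protein alpha subunit, one of -0.26 to 0.29. *Thy1* was the most abundant of all, with 64127, 89098, 69558 and 70794 TPM after CTA, against 83148, 82128, 66726 and 69222 TPM in taste control (interval -0.29 to 0.21). YFP in this line is expressed from the same promoter.

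At the other end, some abundant entries were present in some libraries and listed at 0 in others regardless of training. The entry uc007pma.1 had 201, 0, 0 and 170.2 TPM after CTA, against 0, 0, 351 and 371 TPM in taste control, and uc008wjc.1 had 519, 0, 0 and 0 TPM after CTA, against 319.5, 0, 0 and 0 TPM in taste control. Entries uc007kgm.1 and uc008ork.1 held the same value in each of the 8 libraries, 0, 311, 59.5 and 0 TPM after CTA, against 288, 141, 0 and 16.4 TPM in taste control, and were not counted as separate evidence. *Slirp*, an RNA-binding protein of mitochondria, had 77.0, 158, 438 and 16.8 TPM after CTA, against 220.1, 164, 193 and 199 TPM in taste control, so that CTA held both its highest and its lowest value. *Eri3* had 39.7, 155, 111 and 49.6 TPM after CTA, against 84.5, 263, 13.6 and 156 TPM in taste control.

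Whether a difference between training groups differed between the regions was tested in 1 fit of all 16 libraries by a term for region and training together, BLA minus GC. It was called for 0 of 15191 genes (0%) at an adjusted p under 0.05 (limma, smallest adjusted p = 0.9995), and 601 (3.96%) had an unadjusted p under 0.05. In the GC itself limma called 0 of 15278 genes (0%), with 573 (3.75%) at an unadjusted p under 0.05. Of the 20 genes that met the criteria above in the BLA, 11 had the opposite sign in the GC and 9 the same, and the median size of the log2 fold-change was 1.10 in the BLA and 0.22 in the GC. Since these genes were picked for a large BLA difference, a smaller one elsewhere is built into the choice. The term's unadjusted p (limma) was under 0.05 for 16 of the 20. The term holds the BLA difference used to pick these genes, so this count too follows from the choice and tests nothing.

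*Magoh* averaged 79.7 ± 15.4 TPM in the GC after CTA, against 98.7 ± 44.9 TPM in taste control (SD, n = 4/group). For *Fos* the GC averages were 30.2 ± 13.3 TPM after CTA, against 27.0 ± 9.22 TPM in taste control, and for *Stk11* they were 46.4 ± 21.9 TPM after CTA, against 37.7 ± 12.1 TPM in taste control. This term, the BLA difference minus the GC difference, was 1.58 for *Magoh*, 1.29 for *Fos* and -1.20 for *Stk11*, with standard errors of 0.41, 0.56 and 0.44. *Fkbp5* lay higher in both regions, with a log2 fold-change of 1.35 (standard error 0.50) in the BLA and 1.07 (standard error 0.34) in the GC. *Pam16*, *Cacnb2* and *Emc10* were also positive in the GC at 0.42, 0.51 and 0.29, and *Ptgs2* was 1.03 in the BLA and 0.62 in the GC. These are single genes that went the same way. Of the 41 genes chosen on the BLA libraries, 21 had the opposite sign in the GC and 20 the same. A training difference shared by the regions is thus not shown.

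**Figure D5:**
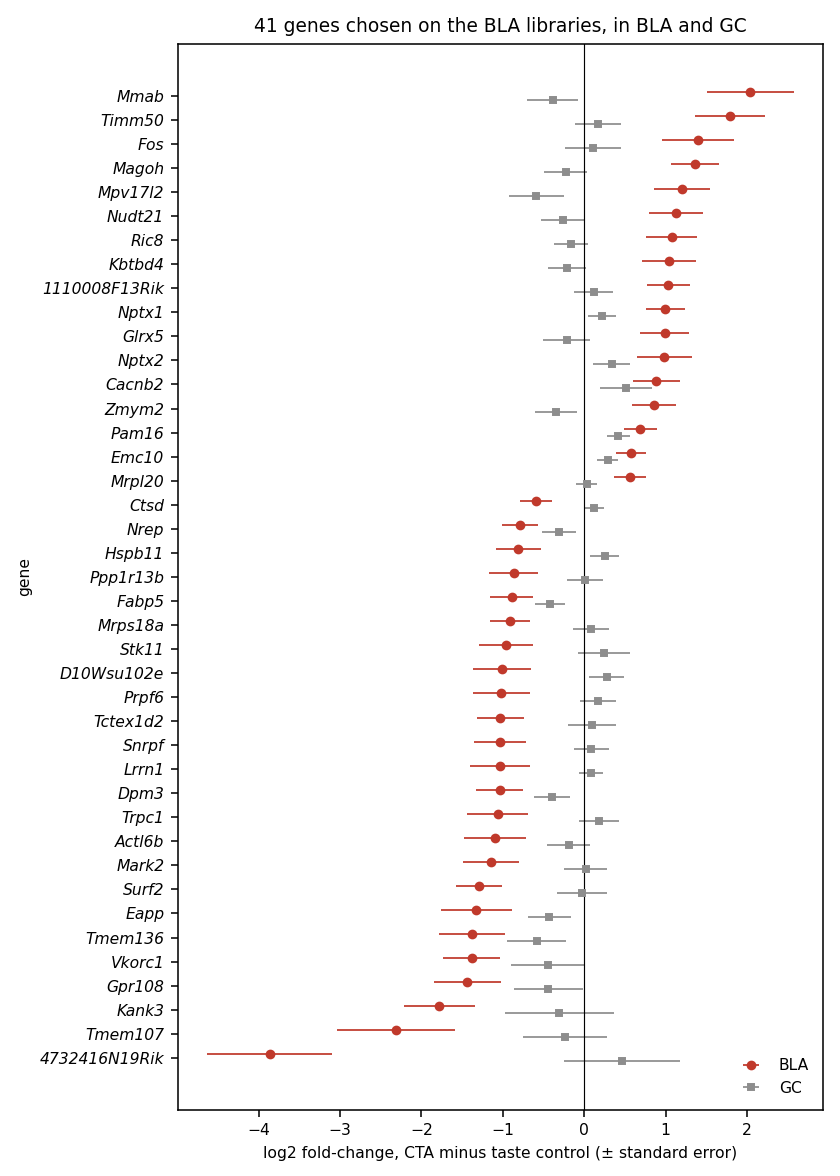
Log2 fold-change of CTA minus taste control, with its standard error, in the BLA (red circles) and the GC (grey squares) for 41 genes, which were chosen on the BLA libraries. In the GC 21 of them have the opposite sign and 20 the same, and 2 have an unadjusted p under 0.05 there.

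The label of the cells was checked on marker genes. Projection neuron transcripts were abundant and even, with *Slc17a7* at 693, 802, 644 and 674 TPM after CTA, against 762, 719, 751 and 648 TPM in taste control, and the 12 markers summed to 2892 to 3470 TPM after CTA and to 2989 to 3484 TPM in taste control. The 16 GABAergic markers summed to 2852 to 4263 TPM after CTA and to 3826 to 4449 TPM in taste control, most of it from *Cck* and *Npy*. *Npy*, a neuropeptide of interneurons, had 127, 162, 150.3 and 452 TPM after CTA, against 245, 193, 169 and 177 TPM in taste control. *Pvalb* and *Dlx2* were the 2 of the 16 listed at 0 in all 8 libraries, while *Gad2* was above 0 in each of them, as given above. *Tmem119* of microglia and *Kcnj8* of mural cells were also listed at 0 throughout. *Sst* marked libraries rather than groups, at 31.2, 7.46, 0.12 and 0.65 TPM after CTA, against 31.1, 94.5, 0.12 and 0.64 TPM in taste control. Sums over 12 oligodendrocyte markers were 34.8 to 132 TPM after CTA and 18.2 to 168 TPM in taste control, over 13 astrocyte markers 263 to 346 TPM and 250.2 to 316 TPM, over 12 microglial markers 10.1 to 79.0 TPM and 18.0 to 36.2 TPM, and over 13 markers of central amygdala and striatal neurons 57.8 to 93.3 TPM and 25.3 to 131 TPM, CTA before taste control in each. In sorted pools of this kind, fewer cells of a type and less RNA per cell cannot be told apart, and the part of other cell types in the differences above was not tested.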

How the data were processed

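RNA from hand-sorted YFP+ neurons was sequenced as single-ended reads, which the authors trimmed and aligned to the mouse genome (mm10) with TopHat, its version not given in the sources used here. The deposited values are TPM per library over 31469 entries, which the authors made from unique reads with their own scripts. Whether counting used strand is not given in the sources used here. The study states a typical read depth but the depth of each library is unknown, so no counting error can be given, and a value of 0 is a listed 0. The deposited columns of group means, fold-changes and p-values were not used. Columns were matched to samples by title.

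Entries with a mean of at least 1 TPM over the 8 BLA libraries were fitted as log2(TPM + 1) by group with limma 3.58.1 in R 4.3.3 (trend on the mean), with Benjamini-Hochberg adjustment over all of them. Groups were also called apart when no value overlapped, with a two-sided exact permutation test. The region by training term was fitted over 16 libraries. The script was tested on simulated data with 200 changed genes. The 23 pathway lists, the marker lists and the members were chosen with earlier results of these data known. Named genes were those the study named, the 15 higher and 15 lower genes of smallest p among those of at least 30 TPM with groups apart, the 5 members of smallest p and the 2 most abundant of each list, the 10 most abundant genes, the 6 most variable and 8 steadiest of at least 100 TPM, and markers. Positions and exon overlaps come from the GRCm38 annotation, promoter windows from RefSeq (GRCm38.p6). Alternatives were the pseudocount, the filter, the scaling, the variance model, library weights, the replicate number as a block and leaving out each library.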

Additional observations from a re-analysis of the deposited data

Results flagged for a closer look

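In groups of 4 libraries, 1 library stood apart from the other 3 by Dixon's ratio in 9 of 144 groups, from 72 named genes, and chance alone gives about 1 in 20. Among genes the study named, taste control 4 had 18.1 TPM of *Ric8* while the other taste controls had 36.1 to 38.7 TPM, and taste control 2 had 47.6 TPM of *Nudt21* while the others had 21.8 to 25.5 TPM. *Zmym2* had 130.1 TPM in taste control 2 and 60.7 to 68.9 TPM in the others. *Ctsd* had 238 TPM in taste control 2 and 224 to 226 TPM in the others, a small gap in absolute terms. *Lsm2* had 37.8 TPM in taste control 2 and 11.2 to 15.2 TPM in the others, so that 4 of these libraries were taste control 2. *Gnb2* had 48.3 TPM in taste control 3 and 62.2 to 64.4 TPM in the others.

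After CTA, *Kcnd1* had 3.18 TPM in CTA 2 and 0.19 to 0.54 TPM in the other CTA libraries, and *Rpl27a* had 275 TPM in CTA 1 and 414 to 442 TPM in the others. *Aifm2* had 0.05 TPM in taste control 4 and was listed at 0 in the other taste controls.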

How the results depend on the processing

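No gene passed an adjusted p under 0.05 (limma) under any alternative run, and none of the 72 named genes for which the alternatives were run turned its direction. Those 72 were picked for their difference in these same libraries, so a stable direction largely follows from the choice and is no test of it. The other named genes, many of them near 0, were not run. At a mean of at least 30 TPM 157 genes had an unadjusted p under 0.05, and the median of the glucocorticoid list was -0.33. The count at an unadjusted p was 551 to 708 over the fits without 1 library. Leaving out libraries one at a time moved list medians over -0.049 to 0.095 (STK11 complex), -0.061 to 0.098 (mitochondrial import), 0.0069 to 0.35 (cholesterol), 0.18 to 0.39 (exon junction complex), 0.039 to 0.26 (AMPA receptors), -0.12 to 0.12 (tri-snRNP), -0.23 to -0.0062 (cilium), -0.11 to 0.29 (glucocorticoid) and -0.25 to -0.032 (cobalamin). Without CTA 4 and taste control 3 together, chosen after seeing the data, medians were -0.086 (STK11 complex), 0.018 (AMPA receptors), -0.26 (vitamin K) and -0.23 (cilium). The study's criteria gave 10 genes, 20 with 30 TPM asked of the higher group, 6 with it asked of both groups, 19 with limma's unadjusted p, and 6 to 19 with 1 library left out. The cause of these moves was not tested, beyond fewer genes or libraries entering.

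With the replicate number as a block 0 genes passed the adjusted test and 565 the unadjusted one, and no list median moved. Same-numbered libraries correlated at -0.17, 0.08, -0.04 and 0.07 in their deviations from group means, and CTA 2 correlated best with taste control 1 (0.30). With a mean of only 4 libraries taken out of each group, these values cannot show whether same-numbered libraries were paired. Of genes at an unadjusted p under 0.05, 48.6% were higher after CTA as deposited, 43.0% after median-ratio rescaling and 45.3% after quantile normalization. Below 10 TPM no interval was narrow enough to leave out a 2-fold difference.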
